A study of Homo sapiens with 6 samples.

Results

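Antisense long noncoding RNA genes are described here in U251 glioma cells given 6-shogaol. The genes are those whose symbol ends in -AS and a digit, which by naming convention marks a transcript that runs antisense to the gene named before the suffix. Members were chosen by that name and by a mean of 100 or more raw counts over all 6 libraries, with 1 locus left out, which gave 205 of the 60612 genes in the deposited table. The table lists 1440 genes with such a symbol, of which 871 had at least 1 count in a library and 1234 lay under the threshold. Just inside it were PPP3CB-AS1 and CACTIN-AS1, with a mean of 100.3 counts each, and MID1IP1-AS1, with 102.3. Just outside were NDUFV2-AS1 with 99.3, PRKAR1B-AS1 with 98.2 and PSMD6-AS2 with 97.8 counts. The mean runs over both groups, so a member can pass through the group where it is higher. Of the members, 9 had a mean under 100 counts with 6-shogaol and 6 had one under 100 in controls. All 205 members passed the low-count filter and were tested.

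RNA sequencing covered 2 groups of 3 libraries. The first received 6-shogaol, a pungent compound of dried ginger, for 24 h at a dose labelled 60 μm, read here as micromolar. The second did not receive it. Both groups are U251, an established human glioma line, labelled wild type in genotype and kept in DMEM and fetal bovine serum. Trizol was used to take total RNA, from which a SMARTER mRNA-Seq kit gave the libraries. No label ties a library to a culture of its own, so a p-value here reflects how far the libraries vary, and part of that may be technical. Each group is 1 line at 1 dose and 1 time.

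Antisense RNAs are transcribed from the strand opposite another gene, often from a promoter shared back to back with it or from within its body. Some act on the neighbouring gene in cis, through chromatin, splicing or RNA pairing, and some act elsewhere in the cell as noncoding RNAs. Many have no established function, and most are spliced, polyadenylated and far less abundant than messenger RNAs. Because an antisense gene and its partner can share exon bases on opposite strands, counts made without strand cannot divide the reads of the shared bases between them. The strand setting of the deposited counts is not given in the sources used here, so values for each pair carry that uncertainty.

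The sequences below are shown for the members that the results turn on. The first is the pair best known for a defined base-pairing partner, OIP5-AS1 (also called Cyrano), which in mouse is known to bind the microRNA miR-7 and direct its decay. The mature microRNA is from RefSeq, with the seed, bases 2 to 8, in capitals, and the stretch of the OIP5-AS1 transcript is from GENCODE 29, with the seed match in capitals. In the 8829-base transcript ENST00000500949.6 the seed match lies at bases 2887 to 2893, and bases 11 to 24 of the microRNA can pair with the stretch without a break, a run of 14 bases.
hsa-miR-7-5p: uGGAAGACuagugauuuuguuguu
OIP5-AS1 site: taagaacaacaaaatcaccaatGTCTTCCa
That long run outside the seed is the feature that sets the site apart from an ordinary seed match. The same transcript holds 2 further seed matches, with paired runs of 2 and 1 bases. miR-7 itself was not measured in these libraries.

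The next sequences are the promoter windows, 250 bases before to 50 after the start, of the 3 members called higher with 6-shogaol and of PSMB8-AS1, whose partner was called lower. They are from RefSeq on GRCh38.p14, all 5′ to 3′ on the strand of the antisense gene, with capitals for a motif found. The window of ENTPD1-AS1 lies at chr10:96090186-96090485 (minus strand) and holds CCAAT. Those of L3MBTL2-AS1 at chr22:41217578-41217877 (minus strand) and of RNF213-AS1 at chr17:80415119-80415418 (minus strand) hold none of the 5 motifs searched. That of PSMB8-AS1 at chr6:32843836-32844135 (plus strand) holds the core of the interferon-stimulated response element, GAAA, any 2 bases and GAAA again.
ENTPD1-AS1: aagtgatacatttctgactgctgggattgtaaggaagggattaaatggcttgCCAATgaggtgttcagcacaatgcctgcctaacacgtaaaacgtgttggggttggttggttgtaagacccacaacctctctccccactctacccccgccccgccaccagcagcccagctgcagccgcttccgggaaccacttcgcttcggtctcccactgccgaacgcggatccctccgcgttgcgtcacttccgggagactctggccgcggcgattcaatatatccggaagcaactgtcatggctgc
L3MBTL2-AS1: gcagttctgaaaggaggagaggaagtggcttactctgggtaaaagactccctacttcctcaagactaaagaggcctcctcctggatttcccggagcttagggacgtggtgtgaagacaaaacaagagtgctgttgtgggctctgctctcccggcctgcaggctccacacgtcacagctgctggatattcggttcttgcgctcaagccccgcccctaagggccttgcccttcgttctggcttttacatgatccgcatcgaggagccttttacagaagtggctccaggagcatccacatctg
RNF213-AS1: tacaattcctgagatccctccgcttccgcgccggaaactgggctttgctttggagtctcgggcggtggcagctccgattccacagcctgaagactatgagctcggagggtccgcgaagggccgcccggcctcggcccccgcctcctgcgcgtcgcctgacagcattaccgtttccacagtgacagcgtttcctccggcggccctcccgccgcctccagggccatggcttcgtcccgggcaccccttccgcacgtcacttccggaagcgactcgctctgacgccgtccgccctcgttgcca
PSMB8-AS1: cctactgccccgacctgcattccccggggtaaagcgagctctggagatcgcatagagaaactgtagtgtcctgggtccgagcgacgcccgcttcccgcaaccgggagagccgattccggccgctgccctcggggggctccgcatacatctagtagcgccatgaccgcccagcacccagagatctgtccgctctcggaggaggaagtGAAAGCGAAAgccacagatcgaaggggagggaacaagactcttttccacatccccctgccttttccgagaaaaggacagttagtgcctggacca
The 3 windows of called members share none of the searched motifs. A window with no match says only that these letters are not in it.

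For 144 of the 205 members RefSeq windows were at hand, 185 in all, and each motif was searched on both strands. GAANNTTC, the core of the heat shock element, was in 7.03% of members' windows and in 6.77% of all 35116 windows. TGACNNNGC, the core of the antioxidant response element, was in 15.7% of members' windows and in 13.3% of all. The core of the interferon-stimulated response element was in 3.78% of members' windows and in 3.57% of all. CCAAT was in 30.8% of members' windows and in 34.6% of all, and TGATGCAA, the composite element of ATF4 and CEBP factors, was in 0 of 185 and in 0.866% of all. The members' windows were richer in G and C, with a median of 65% against 58.67% over all windows. The motifs can overlap one another, and a match is a description of letters and not of binding.

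Totals ran from 43516840 to 60018999 counts per library, and the biological coefficient of variation was 25.3%. The 6-shogaol library of replicate 1 stood apart on the second principal component, which held 20.6% of the variance, at 61.8 against -33.9 to 22.6 for the other 5 libraries. Of 8 glioma or astrocytic markers 5 had a mean of 100 counts or more (VIM, NES, SOX2, CD44 and GFAP), while S100B, OLIG2 and CHI3L1 were low. Of 3 endothelial and 3 oligodendrocyte markers 0 reached that level, and MOG and the microglial marker AIF1 had 0 counts. KRT8, CD68, SYT1 and SNAP25, fixed as markers of other cell types, did reach it. In CPM, counts scaled to each library's total with TMM factors, the summed glioma or astrocytic list spanned 6764 to 10881 CPM with 6-shogaol and 8242 to 8403 CPM in controls and was mostly VIM. Within it GFAP spanned 8.39 to 9.19 CPM with 6-shogaol and 23.8 to 33.9 CPM in controls, NES 539 to 651 and 768 to 777, SOX2 235 to 257 and 290 to 329, and CD44, in the other direction, 267 to 311 and 232 to 247. The other summed lists spanned 123.2 to 165.4 CPM with 6-shogaol and 164.2 to 186.5 CPM in controls for epithelium, 15.8 to 28.3 and 12.8 to 14.7 for microglia or macrophages, 61.0 to 74.5 and 52.3 to 55.0 for neurons, 0.538 to 1.08 and 2.77 to 2.93 for endothelium, and 0.379 to 0.62 and 0.467 to 0.65 for oligodendrocytes. Of these sums, those of the microglial, neuronal and endothelial lists did not overlap between groups, and they were mostly CD68, SYT1 and CDH5 in that order. Their part in the results was not tested. In bulk RNA, fewer cells with a transcript and less of it per cell cannot be told apart.

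Members' counts were mostly low. The mean count per member had a median of 242, with quartiles of 154 and 466 and a highest value of 7456. Of the members, 77 lay under 200 counts and 18 at 1000 or more. Every member had at least 10 counts in every library. GENCODE 29 types 147 of them as antisense, 33 as processed transcripts, 22 as lincRNAs, 2 as transcribed unprocessed pseudogenes and 1 as a bidirectional promoter lncRNA. So 147 carry the antisense type, and the label of the set rests on the symbol for the remainder. A partner was found for 200 members, 2 of them under an older symbol of the partner. Because PAXIP1, TFAP2A and DLGAP1 each have 2 members, there were 197 distinct partners. For HOXA-AS3, HOXB-AS2, HOXC-AS2, HOXD-AS2 and RPARP-AS1 no gene of the preceding name is in the table.

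With 6-shogaol, 3 of 205 antisense genes rose and 0 fell by edgeR's quasi-likelihood test with Benjamini-Hochberg adjustment over all 19279 genes tested. The 3 were ENTPD1-AS1, L3MBTL2-AS1 and RNF213-AS1. Over all genes tested, 1.67% were called higher and 1.71% lower, so the members' 1.46% called higher was near the background. Among the 12091 genes whose mean counts lay within the members' range, 4.06% were called in either direction. At an unadjusted p under 0.05, 20 members were higher and 18 lower, and DESeq2 called 9 higher and 7 lower. Over all 19279 genes tested, 3932 had an unadjusted p under 0.05, and DESeq2 called 932 higher and 934 lower. The count without 6-shogaol replicate 1 was 8 members, and without any other single library it was 0 or 1: 1 without control replicate 1 or 2 or without 6-shogaol replicate 3, and 0 without control replicate 3 or 6-shogaol replicate 2.

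ENTPD1-AS1 (ENSG00000226688, chr10:95732976-96090239, minus strand) had the largest positive log2 fold change of the members. Its CPM values were 10.99, 11.96 and 10.3 with 6-shogaol against 2.46, 4.21 and 3.78 in controls. The raw counts behind them were 621, 600 and 447 with 6-shogaol and 127, 246 and 227 in controls. All 3 6-shogaol libraries lay above all 3 controls. The means were 11.1 ± 0.85 CPM and 3.48 ± 0.914 CPM (SD, n = 3 each), a log2 fold change of 1.67 with a standard error of 0.21 (edgeR adjusted p = 0.0138). The adjusted p was 0.0557 without control replicate 3 and 0.058 without 6-shogaol replicate 2.

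Its partner ENTPD1 encodes CD39, the cell-surface enzyme that breaks down extracellular ATP and ADP. ENTPD1 had 8.39, 9.59 and 9.07 CPM with 6-shogaol against 16.3, 15.4 and 13.5 CPM in controls. The groups did not overlap, in the opposite direction to the antisense gene. The log2 fold change was -0.74 with a standard error of 0.12 (edgeR adjusted p = 0.027), so ENTPD1 was called lower. This was the 1 pair of 193 with both genes tested in which both were called. The ENTPD1 call ended without control replicate 1, control replicate 2 or 6-shogaol replicate 3, and with a replicate block, since no partner was called in those fits.

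Within each library, the log2 ratio of ENTPD1-AS1 to ENTPD1 counts was 0.39, 0.32 and 0.18 with 6-shogaol and -2.72, -1.87 and -1.83 in controls. Antisense counts thus exceeded those of the partner in each 6-shogaol library and were lower in each control. The difference of means was 2.44, for which the two-sided exact permutation test gave p = 0.1, the smallest that 3 libraries against 3 allow. The genes meet tail to tail, and 3.62% of the antisense exon length overlaps ENTPD1 exons. Among genes of GENCODE 29 with a mean of 10 counts or more, no other shares more of its exon length.

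L3MBTL2-AS1 (ENSG00000235513, chr22:41207592-41217910, minus strand) lies within the span of L3MBTL2. It had 3.93, 4.15 and 5.35 CPM with 6-shogaol against 1.18, 1.97 and 1.40 CPM in controls, from 208 to 233 counts and 61 to 115 counts per library. Its mean count was 221 with 6-shogaol and 86.7 in controls, so it met the threshold of 100 only through the 6-shogaol libraries. The lowest 6-shogaol library was above the highest control. Means were 4.48 ± 0.766 CPM and 1.52 ± 0.406 CPM (SD, n = 3 each), and the log2 fold change was 1.56 with a standard error of 0.25 (edgeR adjusted p = 0.0279). The adjusted p was 0.0368 without 6-shogaol replicate 1. Without any other single library it was between 0.055 and 0.0997, which ends the call.

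L3MBTL2 encodes an MBT-domain protein of a noncanonical Polycomb complex. It had 38.2, 27.8 and 32.2 CPM with 6-shogaol against 43.1, 44.5 and 40.7 CPM in controls, a log2 fold change of -0.39 (edgeR adjusted p = 0.14). The groups did not overlap, but the difference did not pass the test. The antisense to partner log2 ratio was -3.28, -2.74 and -2.59 with 6-shogaol and -5.18, -4.50 and -4.85 in controls, a difference of 1.97. Partner counts were thus larger in every library of both groups. Of the exon length of L3MBTL2-AS1, 37.5% overlaps exons of L3MBTL2, so this pair is among those whose values depend most on the strand setting.

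RNF213-AS1 (ENSG00000263069, chr17:80351828-80415118, minus strand) was the third member called. It had 9.22, 7.10 and 9.53 CPM with 6-shogaol against 4.14, 3.93 and 5.35 CPM in controls. Again the lowest 6-shogaol library was above the highest control. Means were 8.62 ± 1.33 CPM and 4.47 ± 0.765 CPM (SD, n = 3 each), a log2 fold change of 0.94 with a standard error of 0.19 (edgeR adjusted p = 0.0465). The call ended without any 1 of the 6 libraries, with adjusted p between 0.0762 and 0.162, and without the low-count filter (0.0712).

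RNF213 encodes a giant E3 ubiquitin ligase known as a moyamoya disease susceptibility gene. It had 482, 443 and 477 CPM with 6-shogaol against 335, 360 and 400 CPM in controls, a log2 fold change of 0.36 (edgeR adjusted p = 0.0647). Here antisense and partner had the same sign, and neither pair of groups overlapped. The ratio still differed by 0.58 on the log2 scale, with no overlap. The genes meet tail to tail, and 14.0% of the antisense exon length lies over RNF213 exons. At the other end, ENDOV, an endonuclease for inosine in nucleic acids, starts 47 bases away on the opposite strand, and its log2 fold change was -0.14 (edgeR adjusted p = 0.712).

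**Figure D1:**
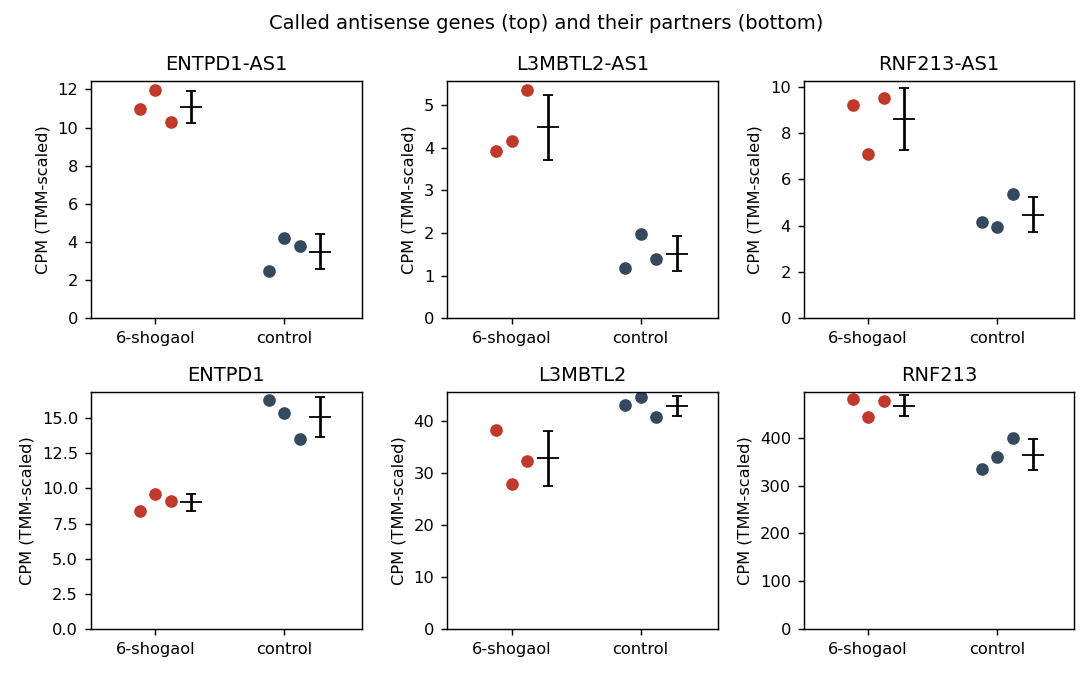
CPM (TMM-scaled) of the 3 called antisense genes and their partners, 1 point per library with 6-shogaol left of control and the group mean ± SD beside them. The groups do not overlap in any panel; ENTPD1 and L3MBTL2 lie lower with 6-shogaol while their antisense genes lie higher, and RNF213 lies higher together with RNF213-AS1.

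A rule of likeness named the genes whose log2 CPM followed each called member most closely over the 6 libraries, as a description only. For ENTPD1-AS1 these were SPAG9 (Pearson's r 0.999), ETV5 (0.998) and ZBTB7A (0.998). For RNF213-AS1 they included ENTPD4 (0.998) and DPY19L2P1 (0.995). For L3MBTL2-AS1 they were AC122129 (0.993), CNNM4 (0.991) and GPAA1P2 (0.990). With 6 libraries in 2 groups, such values mostly carry the difference between groups. The 3 members also drew 3 separate lists, with no gene in common.

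Across all 205 members the fold changes centred near 0. The median log2 fold change was 0.027, with quartiles of -0.24 and 0.28, and 109 members lay above 0 and 96 below. The 12091 genes within the members' range of mean counts had a median of 0.0093 with quartiles of -0.17 and 0.19. Those genes were not matched to the members in level within the range. Members had a median of 242 counts and a highest value of 7456. The members were spread more widely, and 2.93% of them had an absolute log2 fold change of 1 or more, against 1.71% of those genes. The members' error was also larger. The median standard error was 0.209 for members, 0.105 for partners and 0.125 for genes in that range. The median coefficient of variation within groups was 16.4%, 8.30% and 9.78% in the same order of gene sets. The part of count level in these differences was not tested. For 49 members (23.9%) the CPM of the groups did not overlap, against 27.9% of all genes tested. The summed CPM of all members was 1832, 1847 and 1874 with 6-shogaol and 1769, 1850 and 1767 in controls, groups that overlap.

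**Figure D2:**
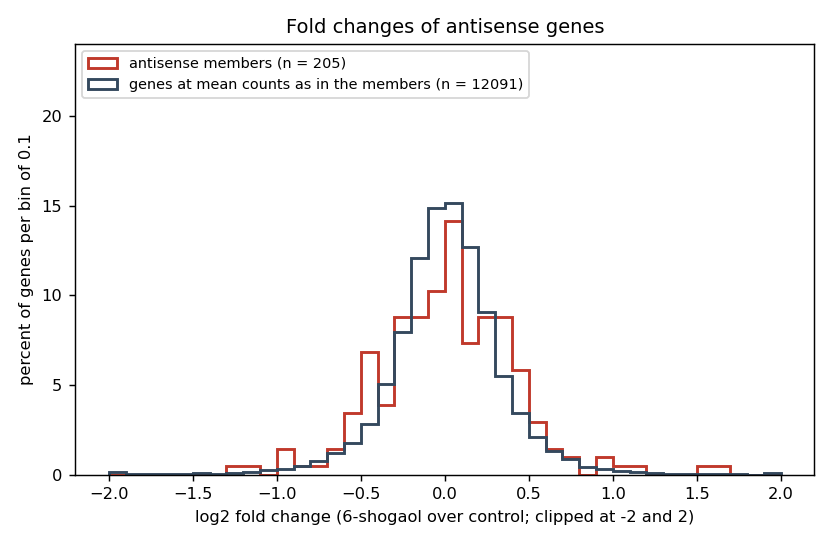
Distribution of log2 fold changes (6-shogaol over control), as the percent of genes per bin of 0.1, for the 205 antisense members and for 12091 genes with mean counts in the same range. Both centre near 0, at medians of 0.027 and 0.0093, and the members spread more widely. Levels within that range were not matched.

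Below the called members, the largest positive changes were those of VIM-AS1 and ADIRF-AS1. VIM-AS1, which overlaps the gene of the intermediate filament vimentin, had 2.14, 7.08 and 4.64 CPM with 6-shogaol against 1.33, 3.20 and 1.78 CPM in controls. The groups overlap, since 6-shogaol replicate 1 lies below control replicate 2, and its log2 fold change of 1.13 had a standard error of 0.49 (edgeR adjusted p = 0.252). ADIRF-AS1 had 10.5, 10.2 and 6.25 CPM with 6-shogaol against 2.88, 3.66 and 6.82 CPM in controls, a log2 fold change of 1.01 (edgeR adjusted p = 0.17). Its groups overlap through control replicate 3, and DESeq2 called it higher. ADIRF, the adipogenesis regulatory factor, had a mean of 4.5 counts. Of its exon length 91.9% is shared with ADIRF-AS1, so the counts of both genes depend on the strand setting.

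The 4 most negative log2 fold changes were -1.21 for TMEM202-AS1, -1.11 for H1-10-AS1, -0.94 for PRR34-AS1 and -0.91 for TFAP2A-AS1, and edgeR's adjusted p was 0.128, 0.109, 0.0805 and 0.0581 in that order. TMEM202-AS1 had 1.82, 1.38 and 0.827 CPM with 6-shogaol against 3.85, 3.52 and 2.0 CPM in controls. H1-10-AS1, beside a linker histone gene, had 5.43, 2.17 and 4.34 CPM with 6-shogaol against 7.87, 8.72 and 9.17 CPM in controls. In all 4 every 6-shogaol library was below every control, yet none passed edgeR's test over all genes, while DESeq2 called all 4. TMEM202-AS1 and PRR34-AS1 had a mean under 100 counts with 6-shogaol, so both met the threshold only through the controls. PRR34-AS1 had 1.75, 1.61 and 2.14 CPM with 6-shogaol against 4.02, 3.85 and 2.68 CPM in controls. TFAP2A-AS1, within the gene of the transcription factor AP-2 alpha, had 3.42, 3.07 and 2.99 CPM with 6-shogaol against 4.51, 6.81 and 6.53 CPM in controls. TFAP2A itself had 137, 149 and 172 CPM with 6-shogaol against 172, 161 and 153 CPM in controls, a log2 fold change of -0.086 (edgeR adjusted p = 0.689).

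The next members met the count threshold but missed edgeR's adjusted p of 0.05, and they were picked after their values were seen. DESeq2 called PAX8-AS1 and RFX3-AS1, and edgeR with robust moderation did too. PAX8-AS1 had 3.98, 3.69 and 3.19 CPM with 6-shogaol against 1.82, 2.14 and 1.85 CPM in controls, a log2 fold change of 0.90 (edgeR adjusted p = 0.0509). RFX3-AS1, which starts back to back with the gene of the ciliogenesis factor RFX3, had 7.58, 6.76 and 5.95 CPM with 6-shogaol against 11.4, 9.56 and 12.1 CPM in controls, a log2 fold change of -0.70 (edgeR adjusted p = 0.0548). RFX3 had 54.3, 65.6 and 59.2 CPM with 6-shogaol against 48.1, 48.7 and 43.5 CPM in controls (log2 fold change 0.35, edgeR adjusted p = 0.0948). Neither gene of that pair overlapped between groups, their fold changes had opposite signs, and GENCODE 29 gives them 0% shared exon length. The second antisense gene within TFAP2A, TFAP2A-AS2, had 2.43, 2.13 and 2.73 CPM with 6-shogaol against 3.58, 3.52 and 4.33 CPM in controls (log2 fold change -0.65, edgeR adjusted p = 0.115). Both antisense genes of TFAP2A thus had lower values in every 6-shogaol library.

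Of the 191 partners tested, 8 were called, 2 higher and 6 lower (4.19%). That was near the 4.06% called in either direction among genes within the members' range of mean counts. Over all genes tested, 1.67% were called higher and 1.71% lower. Without 6-shogaol replicate 1 the count was 16, and without any other single library it was 0 or 1: 1 without control replicate 3 or 6-shogaol replicate 2, and 0 without control replicate 1, control replicate 2 or 6-shogaol replicate 3. At an unadjusted p under 0.05, 32 partners were higher and 32 lower, beside 3932 of all 19279 genes tested in either direction. The median log2 fold change of the partners was -0.059. CPM of the groups did not overlap for 75 of them (39.3%), against 27.9% of all genes tested.

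In 7 of the 8 the antisense gene was not called. SLC7A11, the cystine and glutamate antiporter subunit, had 463, 576 and 525 CPM with 6-shogaol against 375, 383 and 370 CPM in controls, and rose by a log2 fold change of 0.47 (edgeR adjusted p = 0.0374). SLC7A11-AS1 had 3.35, 3.67 and 3.84 CPM with 6-shogaol against 2.69, 2.39 and 3.57 CPM in controls (0.33, edgeR adjusted p = 0.433). The partner's groups are separate and those of the antisense gene overlap. MID1IP1, a regulator of fatty acid synthesis, had 94.0, 88.2 and 92.7 CPM with 6-shogaol against 61.1, 65.5 and 53.7 CPM in controls, and rose by 0.61 (edgeR adjusted p = 0.0197). MID1IP1-AS1 was at 0.055 (edgeR adjusted p = 0.948). The counts behind both antisense genes were small, with means of 172 for SLC7A11-AS1 and 102 for MID1IP1-AS1.

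Partners called lower included the following. HMGN3, a nucleosome-binding protein, had 77.8, 92.5 and 84.6 CPM with 6-shogaol against 138, 132 and 121 CPM in controls, and fell by 0.62 on the log2 scale (edgeR adjusted p = 0.0196). HMGN3-AS1, from the same divergent start, was at 0.25 (edgeR adjusted p = 0.669). LOXL1, a lysyl oxidase that crosslinks elastin, fell by 0.58 (edgeR adjusted p = 0.0424), with LOXL1-AS1 at -0.19. SH3BP5, an activator of the GTPase Rab11, fell by 0.43 (edgeR adjusted p = 0.0383), with SH3BP5-AS1 at -0.081.

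PSMB8, a catalytic subunit of the immunoproteasome, had 28.8, 23.2 and 23.2 CPM with 6-shogaol against 36.2, 36.4 and 35.4 CPM in controls, and fell by 0.52 (edgeR adjusted p = 0.0492). PSMB8-AS1, whose start region is printed above, had 3.22, 3.39 and 3.84 CPM with 6-shogaol against 6.09, 5.53 and 3.63 CPM in controls. Its log2 fold change was -0.55 (edgeR adjusted p = 0.231), with an overlap between 6-shogaol replicate 3 and control replicate 3. The genes start back to back, 601 bases apart, and share 31.7% of the antisense exon length. The log2 ratio within libraries was nearly the same in both groups, with a difference of 0.016.

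**Figure D3:**
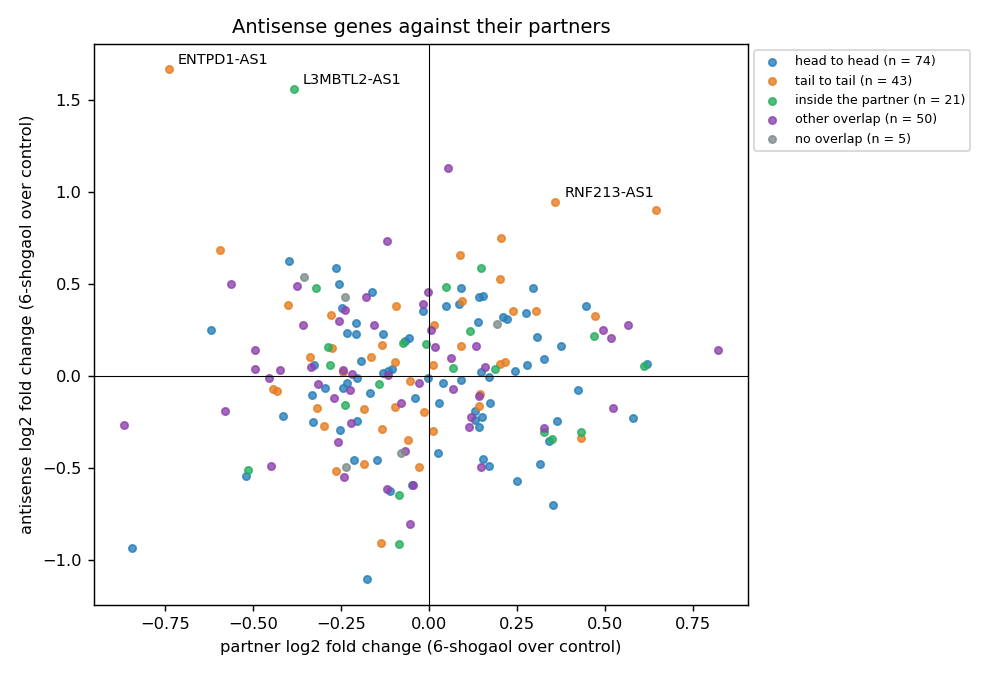
Log2 fold change (6-shogaol over control) of each antisense gene against that of its partner, 1 point for each of 193 pairs tested, coloured by the position of the genes to each other. The points form no line, and ENTPD1-AS1 and L3MBTL2-AS1 stand at the upper left, above 1.5 with partners below 0.

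Over the 193 pairs with both genes tested, 106 had log2 fold changes of the same sign (54.9%). Pearson's r between the fold changes was 0.028 and Spearman's rho 0.038 across pairs, a description over genes that share the same 6 libraries. The log2 ratio of antisense to partner counts did not overlap between groups in 49 of 200 pairs (24.5%), of which 24 were higher and 25 lower with 6-shogaol. Ratios of consecutive genes in the table, formed the same way, did not overlap in 31.6% of 11100 pairs. The antisense pairs' share of 24.5% was lower, but the sets are not alike. Some antisense partners had a mean under 100 counts, and many antisense pairs share exon bases. The part of these differences in the gap was not tested. No ratio can reach an exact permutation p below 0.1.

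By the rule, the largest positive changes of the ratio besides ENTPD1-AS1 and L3MBTL2-AS1 included ATP2C2-AS1, at 1.27. Its partner ATP2C2, a calcium pump of the secretory pathway, had a mean of 64 counts, and the groups overlap in that ratio. The most negative ratio changes were -3.22 for DLGAP1-AS1, -3.01 for DLGAP1-AS2 and -1.41 for TMEM202-AS1, and they rest on few or no counts of the partner. DLGAP1, a scaffold protein of the postsynaptic density, had 4 counts in each 6-shogaol library and 0 in each control. TMEM202 had 0 counts in every library, which allows up to 0.05 to 0.0689 CPM (3 counts, counting error only), so its ratio follows TMEM202-AS1 alone.

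**Figure D4:**
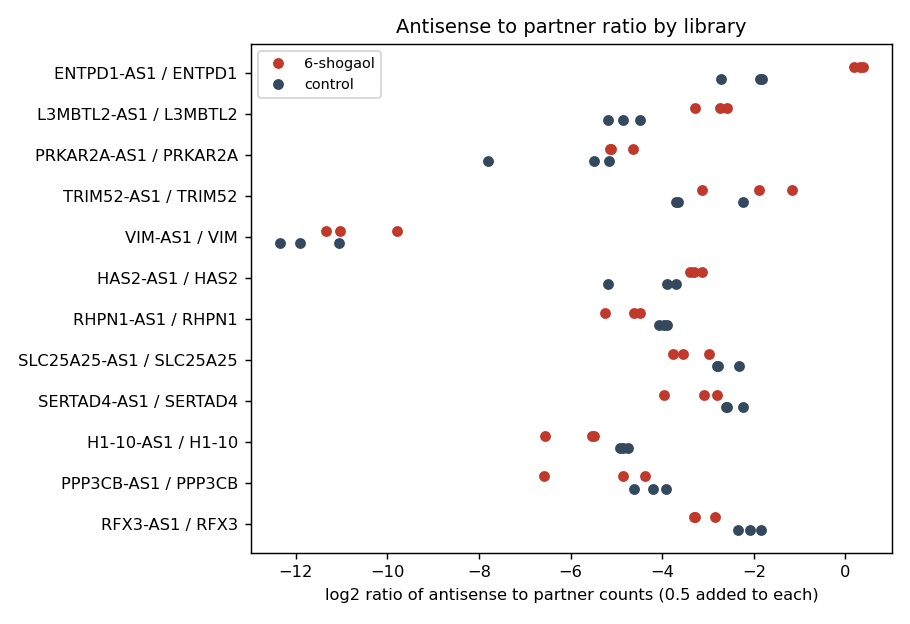
Log2 ratio of antisense to partner counts, with 0.5 added to each, for 12 pairs, 1 point per library with 6-shogaol drawn above control. The pairs are the 6 highest and 6 lowest ratio changes among partners with a mean of 100 counts or more, a choice made after the values were seen; the change is 2.44 for ENTPD1-AS1 at the top and -1.05 for RFX3-AS1 at the bottom.

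Levels can be compared between genes in FPKM, which the authors deposited and which divides by gene length. Members had a median of 0.947 FPKM, from 0.104 to 15.2, and partners a median of 5.81 FPKM. Within pairs the antisense gene stood at a median of 17.8% of the partner's FPKM. It was below the partner in every library in 152 pairs and above it in every library in 33. By the mean it was above in 39 of 200 pairs (19.5%) and under 10% of it in 72. VIM-AS1, at 1.40 FPKM, lay beside VIM at 1156 FPKM. The opposite order held for MIF-AS1, at 5.18 FPKM, over MIF, the macrophage migration inhibitory factor, at 1.99 FPKM. Of the exon length of MIF, 61.9% is shared with MIF-AS1, so the levels of both genes and their order depend on the strand setting. The MIF pair was picked after its values were seen.

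**Figure D5:**
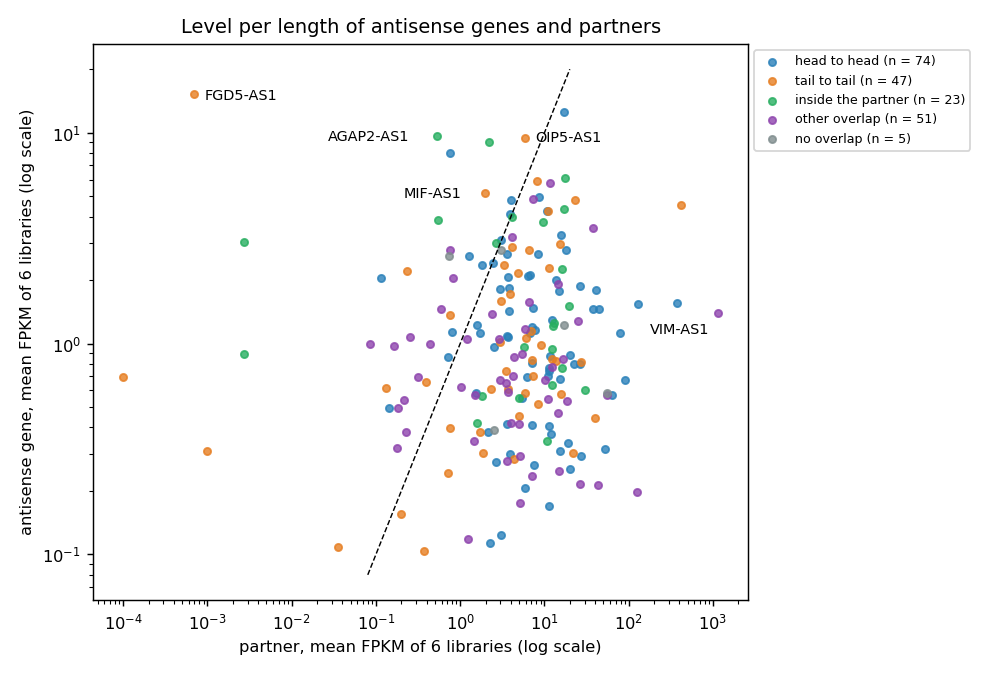
Mean FPKM over 6 libraries of each antisense gene against its partner, 200 pairs, both axes logarithmic, with the dashed line at equal levels and colours for the position class. Most points lie below the line; FGD5-AS1, at 15.2 FPKM, is the highest member, while its partner is near 0. TMEM202 has 0 counts and is drawn at the 0.0001 FPKM that the deposited table gives it.

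The highest members by FPKM were FGD5-AS1 (15.2), SMARCA5-AS1 (12.5), AGAP2-AS1 (9.70), OIP5-AS1 (9.40), SLC9A3-AS1 (9.06) and THAP9-AS1 (7.97). FGD5-AS1 had 14.8, 16.1 and 17.3 FPKM with 6-shogaol against 13.4, 15.03 and 14.5 FPKM in controls, and its log2 fold change of 0.15 did not pass the test (edgeR adjusted p = 0.408). SMARCA5-AS1 had 13.3, 9.78 and 8.72 FPKM with 6-shogaol against 13.4, 14.0 and 15.7 FPKM in controls. SLC9A3-AS1, inside the gene of a sodium and hydrogen exchanger, had 10.6, 6.10 and 7.50 FPKM with 6-shogaol against 10.2, 9.83 and 10.1 FPKM in controls. In that order each member overlaps the next in its libraries' values, and SMARCA5-AS1 overlaps all the others. FGD5, a guanine nucleotide exchange factor of endothelial cells, had a mean of 0.5 counts. So the member with the highest mean FPKM over the 6 libraries has a partner that is almost silent in these cells.

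OIP5-AS1, whose miR-7 site is printed above, had the highest counts. It stood at 147, 155 and 161 CPM with 6-shogaol and 128, 131 and 123 CPM in controls, means of 154 ± 6.97 and 127 ± 3.99 CPM (SD, n = 3 each). The groups did not overlap, and the log2 fold change of 0.28 with a standard error of 0.06 missed the threshold (edgeR adjusted p = 0.0696). Its call depended on the setting, since DESeq2 gave an adjusted p of 0.0121 and edgeR without 6-shogaol replicate 1 gave 0.0438. OIP5, a centromere protein also known as MIS18 beta, was at 0.014 (edgeR adjusted p = 0.975).

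Among the other abundant members, NNT-AS1 had 35.6, 45.7 and 41.8 CPM with 6-shogaol against 28.8, 30.5 and 28.9 CPM in controls (log2 fold change 0.48, edgeR adjusted p = 0.0601). Its partner NNT, the mitochondrial transhydrogenase that makes NADPH, was at 0.09 (edgeR adjusted p = 0.574). THAP9-AS1 had 42.9, 51.8 and 46.2 CPM with 6-shogaol against 37.8, 36.0 and 34.3 CPM in controls (0.38, edgeR adjusted p = 0.076). Both had every 6-shogaol library above every control without passing the test. AGAP2-AS1 lay on the other side, with 15.4, 11.9 and 15.2 CPM with 6-shogaol against 19.5, 20.5 and 20.6 CPM in controls (-0.51, edgeR adjusted p = 0.0727). AGAP2, a GTPase also called PIKE, was at -0.52 (edgeR adjusted p = 0.141), and 57.7% of the antisense exon length is shared with it. DESeq2 called all 3 of these antisense genes, and without 6-shogaol replicate 1 edgeR gave adjusted p of 0.0251 for NNT-AS1 and 0.0499 for THAP9-AS1.

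Other members with a described role did not pass the test. FOXD2-AS1 was at a log2 fold change of 0.28, MAPKAPK5-AS1 at 0.39, ZEB1-AS1 at 0.30, THUMPD3-AS1 at 0.098, TMPO-AS1 at -0.064, MCM3AP-AS1 at -0.17 and HOXA-AS3 at -0.41, with edgeR's adjusted p from 0.408 to 0.838. GABPB1-AS1, beside the gene of a subunit of the transcription factor GABP, varied most among them. It had 30.9, 8.89 and 18.6 CPM with 6-shogaol and 15.5, 10.3 and 33.2 CPM in controls, so libraries of the same group lay far apart. GABPB1 itself stayed between 15.6 and 18.3 CPM with 6-shogaol and between 15.3 and 17.8 CPM in controls. The wide spread was in the antisense gene's values, while the partner's lay close together.

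By position, 74 pairs were head to head, with starts on opposite strands within 1000 bases, 47 tail to tail, 23 had the antisense gene inside the partner, 51 overlapped in other ways and 5 did not overlap. In the group of 51, 18 antisense spans contain the partner, and 33 overlap at 5′ ends lying over 1000 bases apart. The median log2 fold change was -0.011 for head to head pairs, 0.065 for tail to tail pairs, 0.061 inside the partner, 0.031 for other overlaps and 0.28 for pairs without overlap. Ratios did not overlap between groups in 19 of 74, 8 of 47, 8 of 23, 12 of 51 and 2 of 5 pairs in the same order. The share was 24.5% over all antisense pairs and 31.6% over the consecutive genes described above. Differences between the classes were not tested. Median FPKM was 1.12 for head to head members and 0.824 for tail to tail members, at 11.9% and 26.2% of the partner's FPKM. For 35 members another gene than the partner starts within 1000 bases on the other strand, and 17 of 37 such pairs had fold changes of the same sign.

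By GENCODE 29, 156 of 200 pairs share exon bases, 34 of them over 25% or more of the antisense exon length, and the median share was 6.04%. Within groups, the deviations of antisense gene and partner from their group means had a median Pearson's r of -0.15 over 39 pairs with no shared bases, 0.031 over 112 pairs with less than 25% and 0.14 over 31 pairs with 25% or more, among partners with a mean of 100 counts or more. The value was positive in 15, 58 and 20 of those pairs. These are descriptions over 6 libraries that all pairs share.

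Other noncoding genes of the table were counted in the same edgeR fit. Of 319 -AS genes with a mean under 100 counts that were tested, 0 were called higher and 1 lower, GEMIN7-AS1, with a log2 fold change of -2.27 (edgeR adjusted p = 0.0157), while 12 and 14 had an unadjusted p under 0.05 and DESeq2 called 2 and 3. Of 306 LINC genes tested, 1 was higher and 5 lower (20 and 15 at an unadjusted p under 0.05, 2 and 6 by DESeq2). Of 24 SNHG genes, hosts of small nucleolar RNAs, 1 was higher, SNHG32 at 0.37, and 0 lower (4 and 3 at an unadjusted p under 0.05, 2 and 1 by DESeq2). Of 85 -DT genes, divergent transcripts, 0 were called (3 higher and 5 lower at an unadjusted p under 0.05, 1 and 1 by DESeq2). Of 13 intronic -IT genes and 3 overlapping -OT genes 0 were called, with 1 -IT gene lower and 1 -OT gene higher at an unadjusted p under 0.05 and 0 by DESeq2.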

How the data were processed

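The authors deposited raw counts per gene, not normalized, and FPKM values for the same genes, per the file headers. A copy of the counts beside the FPKM values differed in 0 values. The table held 0 columns of samples outside the series. GRCm38 and mm10 are the builds named per the submitters' processing notes, yet all 60612 identifiers are human and 0 are mouse ones. Coordinates are printed as deposited. Aligner, counter and strand setting are not given in the sources used here.

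The deposited counts were tested by edgeR 4.0.16 in R 4.3.3 on the 19279 genes kept by filterByExpr. Another 12752 genes had counts but were left out by that filter. After TMM scaling, which also underlies the CPM values, glmQLFit and glmQLFTest gave the group effect. P-values were Benjamini-Hochberg adjusted over all tested genes, and 0.05 was the threshold. A standard error is the size of the log2 fold change over the root of the F statistic. Ratios within a library had 0.5 added to each count and a two-sided exact permutation test. DESeq2 1.42.0, limma 3.58.1 on log2(FPKM + 1), and other scalings, filters and left-out libraries were alternatives. Exon overlap and gene types came from GENCODE 29, and promoter windows and microRNAs from RefSeq.

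The edgeR step was tested on simulated data for 6-shogaol against control over 19279 genes, 50 changed per fold, all with a mean of 100 counts or more. Of genes changed 1.5-fold it recovered 12%, of those changed 2-fold 66%, and of those changed 3-fold or 4-fold 94% each, and 6 of 139 calls were false. The changed genes were drawn from all genes at that level and not from members alone, so recovery among members was not measured.

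The members and lists were chosen with earlier results of these data known. A rule named 36 genes: called members, the 6 highest by FPKM, the 4 largest changes each way, members with a called partner, those at the count threshold, the 3 largest ratio changes each way, and a list of members with a described role. The comparisons with genes in the members' count range, with consecutive genes and with 5′ neighbours were added after the data were seen. So were the counts of groups without overlap and the classes of exon sharing. Some genes are not reported here.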

Additional observations from a re-analysis of the deposited data

How the results depend on the processing

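Against 3 antisense genes called, DESeq2 called 16, a filter of 1 CPM in 3 libraries 7, limma with 0.1 added to FPKM 5, limma without a filter 0 (31 at an unadjusted p under 0.05) and robust moderation, chosen after seeing the data, 5. The limma fits with a filter held 102 members and not the 3 called ones. Against 8 partners called, DESeq2 called 27, edgeR without the filter 4 and limma without a filter 3. Against 651 of all genes, these 3 settings called 1866, 378 and 272. Leaving out 1 library gave 0 to 8 antisense genes, 0 to 16 partners, 98 to 1012 of all genes, the highest each time without 6-shogaol replicate 1, and 65 to 81 ratios without overlap against 49, where fewer libraries separate more easily by construction. The cause of the other shifts was not tested.

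No label says whether the replicate numbers pair the libraries. The correlations of deviations for numbers 1, 2 and 3 were -0.030, 0.059 and -0.036, and those between unlike numbers ran from -0.063 to 0.089. With 3 libraries per group such values cannot decide whether the libraries were paired. With a replicate block edgeR called 0 antisense genes (32 at an unadjusted p under 0.05), 0 partners (50) and 3 of all genes (3290). In the ratios, 87 had 1 sign in all 3 numbered pairs.

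Of the 3 called members none reversed under the alternatives run. These alternatives were recorded by gene for the 36 named genes, and signs reversed for 6 of them. Leaving out 1 library gave log2 fold changes of -0.52 to 0.59 for GABPB1-AS1 (above 0 without control replicate 3, 6-shogaol replicate 2 or 6-shogaol replicate 3), -0.57 to 0.12 for SH3BP5-AS1 (above 0 without 6-shogaol replicate 1 or 3), -0.43 to 0.038 for MCM3AP-AS1 (above 0 without control replicate 2 or 6-shogaol replicate 1) and -0.16 to 0.28 for MID1IP1-AS1 (below 0 without control replicate 3 or 6-shogaol replicate 3). Without 6-shogaol replicate 3 the ends were -0.031 for THUMPD3-AS1, otherwise up to 0.22, and 0.031 for TMPO-AS1, otherwise down to -0.14. GABPB1-AS1 was at 0.0078 in limma without a filter. On simulated data 12% of 1.5-fold changes were recovered among genes with a mean of 100 counts or more, so changes of that size were mostly beyond the test. Recovery among members alone was not measured. Their median standard error was 0.209, against 0.125 for genes in their count range.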
